A study of Homo sapiens with 16 samples.

Results

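The 8 arrays described here compared the RNA recovered with HuR after knockdown of the long noncoding RNA MIR100HG with the RNA recovered with HuR after a control siRNA. They are the HuR immunoprecipitations (IPs) of a series of 16 arrays, and they were taken by their labels: 4 HuR IPs from cells given MIR100HG siRNA and 4 HuR IPs from cells given control siRNA. The other 8 arrays are IPs with IgG, 4 for each siRNA, and served only as background. All cells were U2OS, an established human osteosarcoma line, described as cell cycle synchronized, and all received an siRNA for 48 hours. The MIR100HG siRNA was aimed at exon 4 of the transcript. The labels give protocols for mitosis, G1, S and G2 but not the phase used for each array, and the knockdown rests on this siRNA alone. The submitters call the 4 samples of a group biological replicates, and no slide or scan date is given in the sources used here.

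HuR, encoded by ELAVL1, is a widely expressed RNA-binding protein that holds on to AU-rich and U-rich stretches of mRNAs, often in their untranslated regions, and is known for stabilising those mRNAs or helping their translation. In an HuR IP, an antibody pulls the protein out of a cell lysate and the RNA that comes with it is amplified and hybridised. MIR100HG is the host transcript of a cluster of microRNAs, and the series' title places its long noncoding products between HuR and the mRNAs that HuR binds. The microRNAs themselves were not measured by these arrays. Their mature guide strands are shown to identify the locus that the siRNA was aimed at, from RefSeq on GRCh38.p14, with the seed (bases 2 to 8) in capitals and all on the minus strand of chromosome 11.
hsa-miR-100-5p, chr11:122152275-122152296: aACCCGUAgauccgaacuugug
hsa-let-7a-5p, chr11:122146568-122146589: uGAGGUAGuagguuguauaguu
hsa-miR-125b-5p, chr11:122099809-122099830: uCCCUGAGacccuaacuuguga
The 3 seeds differ, so these products of the same locus do not share a seed.

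The signal of the arrays spread more widely within the MIR100HG siRNA group than in the control siRNA group. Each array's deposited intensities were set against the mean of the control siRNA HuR IPs over 126 bright probes, those at least 50 units above the array median in that mean, and the median ratio is called the amplitude. The amplitude was 0.182, 5.42, 0.197 and 0.0547 in MIR100HG siRNA replicates 1 to 4, against 0.924, 1.23, 1.24 and 0.624 in control siRNA replicates 1 to 4. Replicate 2 of the MIR100HG siRNA group lay above every control array and the other 3 lay below every one. The IgG IPs ran between 0.0232 and 0.0706 with MIR100HG siRNA and between 0.0705 and 0.175 with control siRNA. Replicate 4 lay inside that span, and replicates 1 and 3 lay above all 8 IgG arrays. The highest intensity on an array was 327, 6370, 314 and 334 with MIR100HG siRNA, against 1014, 1240, 1420 and 770 with control siRNA. A probe counted as detected at a detection p under 0.01, the submitters' own test against the background of that array. By that count 563, 2592, 824 and 761 of 47231 probes were detected with MIR100HG siRNA, against 1186, 1212, 1407 and 752 with control siRNA. About 472 probes would pass on an array with no signal.

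For detected probes and for the highest intensity, the difference between the groups did not pass the test, with or without replicate 2. Detected probes averaged 1185 ± 945 with MIR100HG siRNA and 1139 ± 276 with control siRNA (SD, n = 4 each), with an exact two-sided permutation p of 0.943. Without MIR100HG siRNA replicate 2 the mean was 716 ± 136 (SD, n = 3) against 1139 ± 276, with an exact permutation p of 0.114. The highest intensity gave an exact permutation p of 1.0 on all 8 arrays and of 0.0571 without replicate 2, where all 3 MIR100HG siRNA values lay below the 4 control values. The median intensity of an array, which reflects background, was 50, 50, 48 and 48 with MIR100HG siRNA, against 46, 47, 46 and 46 with control siRNA. These medians did not overlap, with an exact permutation p of 0.0286, the smallest that 4 against 4 arrays can give, and 0.0857 after adjustment over the 3 array measures.

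**Figure D1:**
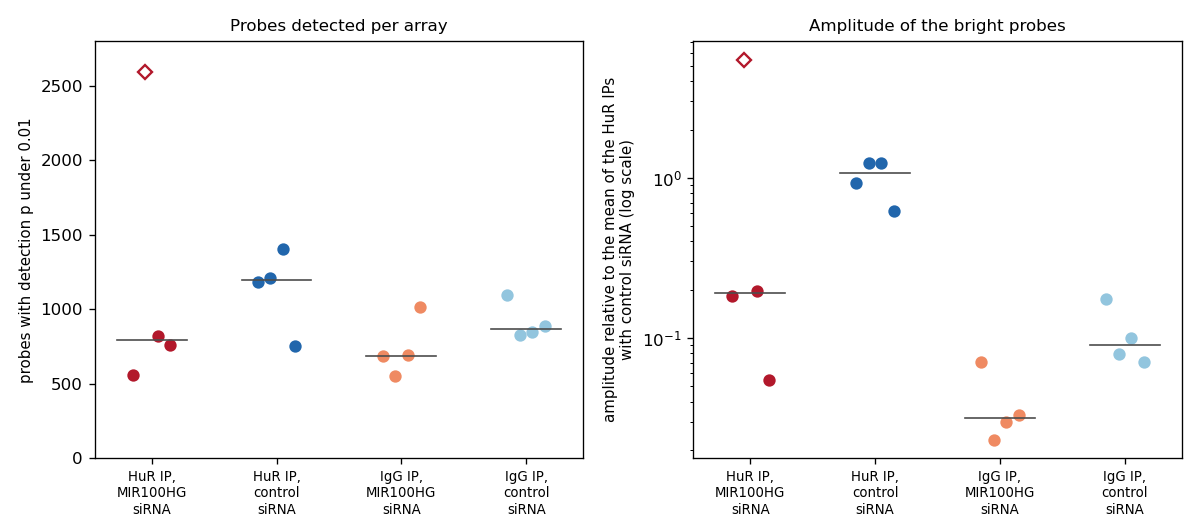
Probes detected at a detection p under 0.01 (left) and amplitude of the 126 bright probes on a log scale (right), 1 point per array, with the median of each group as a line. The open diamond is MIR100HG siRNA replicate 2, which had 2592 detected probes and an amplitude of 5.42, while the other 3 MIR100HG siRNA HuR IPs had amplitudes between 0.0547 and 0.197.

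The pattern across features also set the MIR100HG siRNA arrays apart from each other. Over the 866 features tested below, the correlation of log2 intensity between pairs of control siRNA arrays lay between 0.93 and 0.97. Replicate 2 correlated with the control siRNA arrays at 0.79 to 0.88, replicates 1 and 3 at 0.46 to 0.67, and replicate 4 at 0.01 to 0.27. Replicate 2 correlated with the other 3 MIR100HG siRNA arrays at -0.16 to 0.31, and those 3 with one another at 0.76 to 0.90. These correlations are across features that share each array's background and amplitude, so they describe the arrays. Replicate 2 is therefore kept and left out in turn in everything that follows.

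The target of the siRNA and the target of the antibody could not be checked on these arrays. The MIR100HG probe read 54, 54, 47 and 50 with MIR100HG siRNA, against 40, 49, 51 and 47 with control siRNA, and it was not detected on any of the 16 arrays. The ELAVL1 probe read 43, 41, 49 and 42 with MIR100HG siRNA, against 45, 47, 45 and 46 with control siRNA, also with no array detected. Both probes sat at the array medians, so they give no level of either RNA in these IPs. Of 10 genes typical of the U2OS line or mesenchymal cells, 6 were never detected in the 8 HuR IPs (VIM, COL1A1, COL1A2, SPARC, RUNX2 and THY1). The other 4 were CD44, the hyaluronan receptor, detected on 1 MIR100HG siRNA array and on all 4 control siRNA arrays, LGALS1 on 1 and 1, S100A6 on 1 and 0, and FN1 on 0 and 1. None of the 5 epithelial markers (EPCAM, CDH1, KRT5, KRT14 and KRT19) and none of the 5 blood and immune markers (PTPRC, CD3E, CD14, HBB and HBA1) was detected. Of 3 neural markers only MAP2 was detected, on 1 control siRNA array.

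The brightest mRNAs had low readings on 3 of the MIR100HG siRNA arrays and very high readings on the fourth. ACTB, which encodes cytoplasmic actin, read 180, 4382, 184 and 61 with MIR100HG siRNA, against 621, 992, 1420 and 456 with control siRNA. MIR100HG siRNA replicate 2 was above all controls and replicates 1, 3 and 4 below all of them, so the full groups overlapped. ITGB1, the common beta subunit of many integrins, read 104, 1849, 116 and 60 with MIR100HG siRNA, against 525, 773, 580 and 247 with control siRNA, the same arrangement. LAIR1, a collagen receptor known from leukocytes, read 248, 6370, 257 and 123 with MIR100HG siRNA, against 1014, 1240, 1275 and 770 with control siRNA. It was detected on all 16 arrays, with 60 to 114 in the IgG IPs with MIR100HG siRNA and 122 to 203 in those with control siRNA, while the leukocyte marker PTPRC was not detected. CLUAP1, a ciliary transport protein, SLC7A5P2, a pseudogene of an amino acid transporter, and F2R, the thrombin receptor, had the same arrangement of arrays. In bulk IPs such as these, less of an mRNA bound to HuR, less HuR pulled down and less RNA recovered cannot be told apart.

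**Figure D2:**
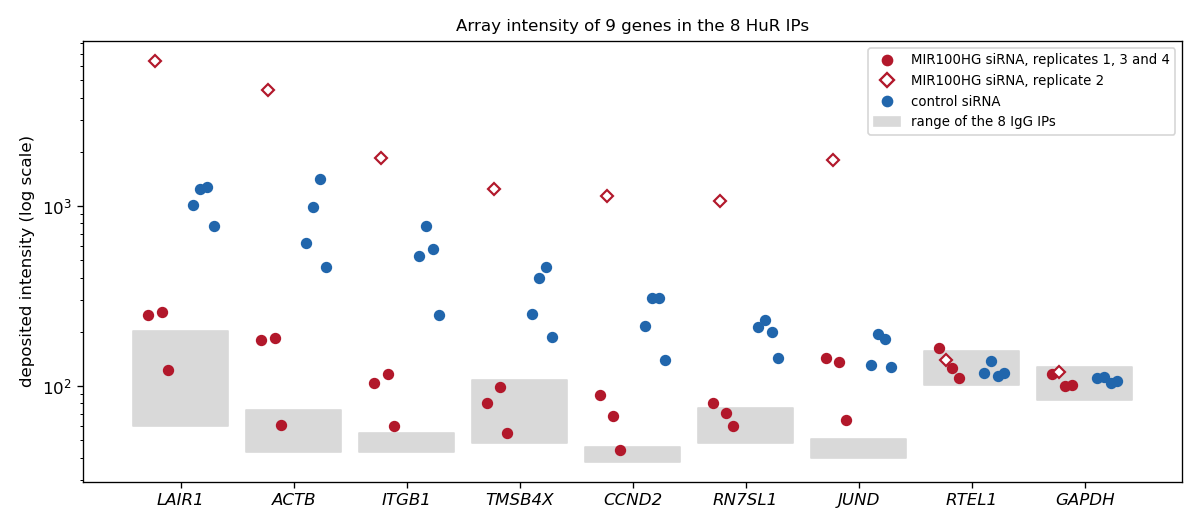
Deposited intensity (log scale) of 9 genes on each HuR IP array, MIR100HG siRNA left and control siRNA right within each gene, with the range of the 8 IgG IPs shaded. For LAIR1, ACTB, ITGB1, TMSB4X, CCND2 and RN7SL1, MIR100HG siRNA replicate 2 lies above the controls and replicates 1, 3 and 4 below them. For JUND replicates 1 and 3 lie within the control range, and RTEL1 and GAPDH stay between 100 and 163 on all 8 arrays.

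Differences were tested with limma on background-corrected, quantile-normalized log2 intensities, MIR100HG siRNA minus control siRNA. A probe was kept when it was detected on at least 3 arrays of either group, and a call needed a Benjamini-Hochberg adjusted p under 0.05 over all features. On all 8 arrays 903 probes passed, giving 866 features, of which 534 were named genes. The filter itself took sides, since 472 features entered through the control siRNA arrays alone, 192 through the MIR100HG siRNA arrays alone and 202 through both. Of the 866 features, 91 were lower with MIR100HG siRNA (10.5%) and 0 were higher (0.0%), and 270 had an unadjusted p under 0.05. The median log2 difference over all features was -0.37. With each array centred on its median, or with no scaling, 0 features were called (0.0% in either direction), with 91 and 106 at an unadjusted p under 0.05.

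Named genes with the largest differences and no overlap between the groups were spread over many functions. XPNPEP3, a mitochondrial aminopeptidase, read 60, 337, 54 and 47 with MIR100HG siRNA, against 159, 197, 160 and 95 with control siRNA. On the raw scale replicate 2 exceeded all 4 controls, but after quantile normalization all 4 MIR100HG siRNA values were below the controls, by 2.23 ± 0.45 on the log2 scale (SE, adjusted p 0.0176). C19orf12, a membrane protein of mitochondria and endoplasmic reticulum, read 57, 80, 56 and 51 with MIR100HG siRNA, against 105, 114, 136 and 85 with control siRNA. Here the groups did not overlap even as deposited, and the log2 difference was -2.06 ± 0.25 (adjusted p 0.00312). On the common amplitude described further on, C19orf12 was not called, with or without replicate 2. Without replicate 2 the groups overlapped on that scale, with a difference of -0.52 (adjusted p 0.149). TMED2, a cargo receptor between endoplasmic reticulum and Golgi, fell by 2.06 on the log2 scale (adjusted p 0.0176), and its intensities were 51, 241, 57 and 46 with MIR100HG siRNA, against 130, 162, 175 and 71 with control siRNA. TRIM16L fell by 1.96 (adjusted p 0.0176), YWHAZ, a phosphoserine-binding adaptor, by 1.88 (adjusted p 0.0193), and NUCKS1, a chromatin-associated DNA-binding protein, by 1.85 (adjusted p 0.027).

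Metal and ribosome genes were among them as well. MT2A, a metallothionein, read 56, 179, 50 and 53 with MIR100HG siRNA, against 83, 125, 143 and 84 with control siRNA, and fell by 1.82 on the log2 scale (adjusted p 0.0166). RPS20, of the small ribosomal subunit, fell by 1.81 (adjusted p 0.0167), SNHG10, a host transcript of a small nucleolar RNA, by 1.76 (adjusted p 0.024), and KCNH6, a potassium channel, by 1.73 (adjusted p 0.0262). MT2A and RPS20 were each detected on 6 of the 8 IgG IPs, YWHAZ, NUCKS1 and SNHG10 on 0. No gene passed in the other direction, and the 5 named genes with the smallest unadjusted p were dim. SCRN3 read 67, 62, 67 and 61 with MIR100HG siRNA, against 49, 55, 53 and 51 with control siRNA, with a log2 difference of 1.01 ± 0.36 and an adjusted p of 0.0987. ANG, the ribonuclease angiogenin, read 70, 65, 64 and 68 with MIR100HG siRNA, against 56, 58, 51 and 49 with control siRNA (1.36 ± 0.48, adjusted p 0.0987). DBNDD1, CCDC43 and DCLK1 had log2 differences of 1.24, 1.23 and 1.19 and adjusted p of 0.0994, 0.101 and 0.101. The number of calls on 8 arrays changed with each array left out. Leaving out MIR100HG siRNA replicate 1, 2, 3 or 4 gave 2, 547, 11 and 35 calls in place of 91, and leaving out control siRNA replicate 1, 2, 3 or 4 gave 2, 2, 2 and 3.

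**Figure D3:**
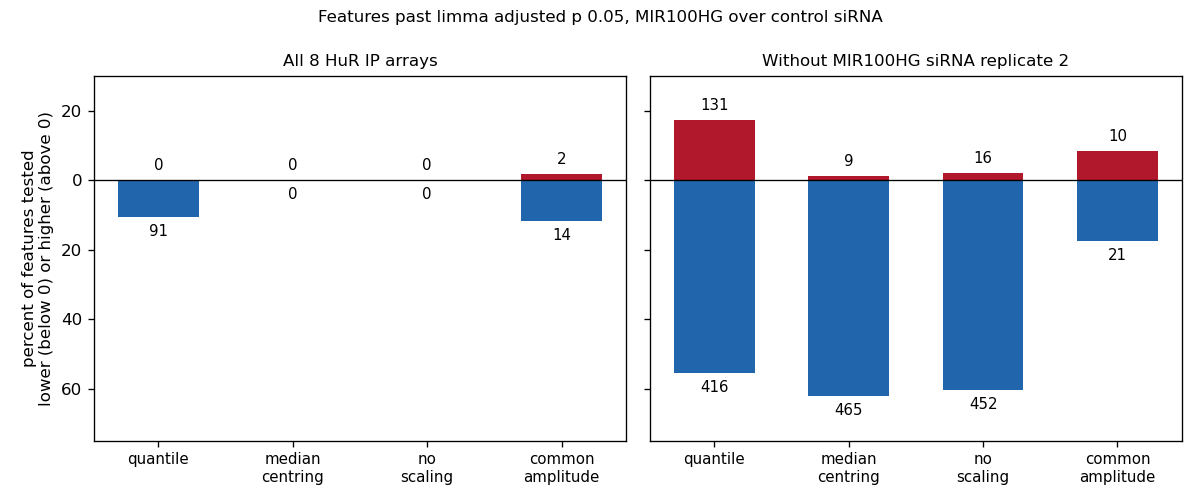
Share of tested features called higher (above 0, red) or lower (below 0, blue) with MIR100HG siRNA than with control siRNA, in percent, for 4 ways of scaling the arrays, with the number of features beside each bar. On all 8 arrays calls appear with quantile normalization (91 lower) and a common amplitude (2 higher and 14 lower), and without MIR100HG siRNA replicate 2 the lower calls outnumber the higher ones under every scaling shown.

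Without MIR100HG siRNA replicate 2, most features were lower with MIR100HG siRNA under quantile normalization, median centring and no scaling, but not on the common amplitude described further on, where 17.5% were. On these 7 arrays 787 probes passed, giving 750 features, of which 476 were named and 560 entered through the control siRNA arrays alone. A feature that entered that way was detected with control siRNA and on at most 2 of the 3 remaining MIR100HG siRNA arrays, so a lower value was partly built in. With quantile normalization 416 features were lower (55.5%) and 131 higher (17.5%). With median centring 465 were lower (62.0%) and 9 higher (1.2%), and with no scaling 452 were lower (60.3%) and 16 higher (2.13%). In all 3 scalings, 402 features were lower and 9 higher, and the 91 features lower on all 8 arrays were all among the 402. The 7 arrays are part of the same 8, so that overlap is not an independent agreement. Leaving out control siRNA replicate 2 or 3 as well lowered the 547 calls of the quantile fit to 363 and 356. Among the 114 features detected on enough arrays of both groups, by contrast, 63 were higher and 4 lower with quantile normalization.

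The genes that led on 8 arrays led here too, many of them dropping out of detection. Where no MIR100HG siRNA array had a detection p under 0.05, the change is given as a bound, the mean of the control siRNA arrays over the lowest level that could be told from background, both on the background-corrected, quantile-normalized scale. No bound is given where it exceeded the ratio of the deposited mean intensities. Genes not detected on every remaining MIR100HG siRNA array entered this fit through the control siRNA arrays alone, so their lower values were partly built in. SNRPF, a core protein of spliceosomal particles, read 52, 44 and 48 with MIR100HG siRNA, against 82, 142, 194 and 83 with control siRNA. That made it at least 2.32-fold lower with MIR100HG siRNA (adjusted p 0.000336), with no overlap. YWHAZ was at least 2.08-fold lower (adjusted p 0.000103) and SNHG10 at least 2.06-fold lower (adjusted p 9.49e-05). C19orf12 and MT2A passed as well (adjusted p 8.78e-05 and 0.000111), with deposited means of 54.7 and 53 with MIR100HG siRNA, against 110.0 and 108.8 with control siRNA. RPS20 was at least 2.02-fold lower (adjusted p 0.000103) and KCNH6 at least 1.96-fold lower (adjusted p 0.000103). XPNPEP3 and TMED2 stayed detected on part of the MIR100HG siRNA arrays at the looser threshold and fell by 1.96 and 1.79 on the log2 scale (adjusted p 9.49e-05 and 0.00019).

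Other named genes with large differences in this fit were DCBLD2, ITGB1, TMCO1 and CCNI. DCBLD2, a transmembrane receptor-like protein, read 59, 60 and 52 with MIR100HG siRNA, against 137, 207, 155 and 94 with control siRNA, and fell by 1.78 ± 0.17 on the log2 scale (adjusted p 0.0001). Replicate 2 read 520, above all control siRNA values. With it included, DCBLD2 passed under quantile normalization, at -1.90 ± 0.52 (adjusted p 0.0443). With median centring or no scaling, 0 features were called on all 8 arrays. ITGB1 fell by 1.72 ± 0.61 with quantile normalization (adjusted p 0.0319) and by 3.15 with median centring (adjusted p 0.000595). TMCO1, a channel of the endoplasmic reticulum, fell by 1.64 (adjusted p 9.82e-05) and CCNI, a cyclin-like protein, by 1.57 (adjusted p 0.000103). On the common amplitude described further on, without replicate 2, DCBLD2, ITGB1, TMCO1 and CCNI differed by -0.68, -0.69, -0.69 and -1.04. None of them passed there (adjusted p 0.0949, 0.121, 0.111 and 0.0786). Every gene in this paragraph was undetected or nearly so in the IgG IPs, on at most 1 of 8 arrays.

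Among the 131 features higher without replicate 2 under quantile normalization, 27 were probes that hardly varied between the HuR IPs. RTEL1, a DNA helicase active at telomeres, read 163, 126 and 110 with MIR100HG siRNA, against 118, 138, 113 and 118 with control siRNA. GAPDH, of glycolysis, read 117, 100 and 101 with MIR100HG siRNA, against 110, 112, 104 and 107 with control siRNA. Both sets of readings overlapped as deposited, yet quantile normalization gave log2 differences of 2.29 ± 0.26 for RTEL1 (adjusted p 0.00019) and 1.85 ± 0.25 for GAPDH (adjusted p 0.000351), with median centring 0.07 (adjusted p 0.779) and -0.14 (adjusted p 0.365). Of 30 features detected on all 16 arrays, 28 had a coefficient of variation of 3.64% to 13.9% over the 8 HuR IPs. Of those 28, 27 were called higher without replicate 2 under quantile normalization, against 1 with median centring and 2 with no scaling. The other features detected on all 16 arrays were LAIR1 and CLUAP1. DSC3, HNRNPK, CYB561, C1orf226 and ARRB1 were likewise called higher with quantile normalization, by 1.58, 1.44, 1.42, 1.26 and 1.23 on the log2 scale, and none of these 5 passed with median centring. The 9 features higher in all 3 scalings included SCRN3, ANG, WWOX, a tumour suppressor, and CLEC10A, a lectin known from macrophages. SCRN3 differed by 0.87 ± 0.17 with quantile normalization (adjusted p 0.00209) and by 0.45 with median centring (adjusted p 0.0149). These probes were dim, and the array medians were themselves higher with MIR100HG siRNA, as given above.

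The gene lists were read first by detection, which needs no scaling between arrays. Cytosolic ribosomal proteins showed the widest spread, with 5, 46, 3 and 2 of 69 genes detected with MIR100HG siRNA, against 28, 33, 36 and 21 with control siRNA. Replicate 2 lay above all controls and the other 3 below all of them. The same order of arrays held for translation factors, with 1, 17, 0 and 0 of 28 genes against 9, 10, 10 and 3. It held as well for tubulin and vesicle trafficking (0, 13, 0 and 0 of 24 against 6, 8, 7 and 1), for p53 pathway and apoptosis genes (0, 8, 0 and 1 of 18 against 3, 4, 4 and 4) and for adhesion and matrix genes (3, 10, 2 and 1 of 27 against 5, 8, 8 and 5). For splicing and RNA-binding proteins replicates 1, 3 and 4 lay within the range of the controls, with 2, 16, 5 and 4 of 33 genes detected with MIR100HG siRNA, against 7, 7, 7 and 2 with control siRNA.

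**Figure D4:**
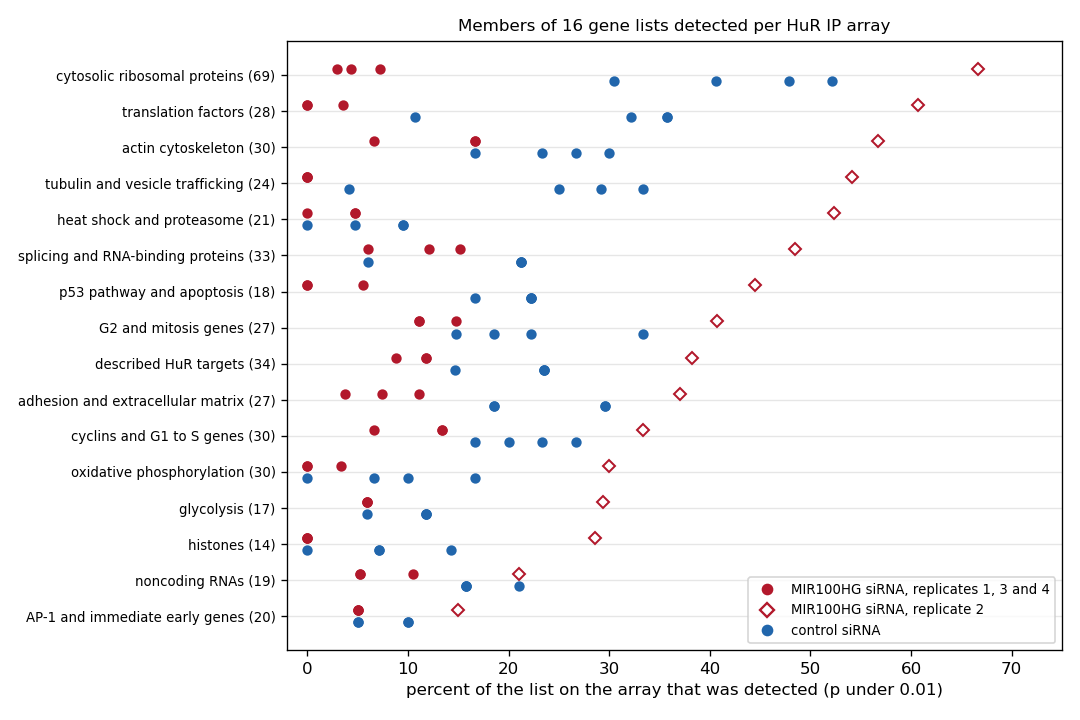
Percent of each gene list (members on the array in brackets) detected at p under 0.01, per HuR IP array, MIR100HG siRNA above control siRNA within each list, with equal values drawn over each other. MIR100HG siRNA replicate 2 had the highest share or shared it in all 16 lists, and replicates 1, 3 and 4 lay at or near the lower end.

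The tests of the lists are read against the share of all features called lower, 10.5% on all 8 arrays and 55.5% without replicate 2, and against how the members entered. A member that entered through the control siRNA arrays alone had a lower value partly built in. Of 24 ribosomal protein mRNAs, which encode the structural parts of the ribosome, 4 were lower on all 8 arrays, where 21 had entered through the control siRNA arrays alone, and 22 without replicate 2, where all 24 had. The medians were -0.80 and -0.79 on the log2 scale beside -0.37 and -0.50 over all features. With median centring on all 8 arrays 0 of the 24 were called. On the common amplitude without replicate 2, RPL6 and RPS29 had log2 differences of 0.41 and 0.63 (adjusted p 0.348 and 0.397). RPS20 and RPL41 went the other way there, with -1.44 and -0.73 (adjusted p 0.004 and 0.219), so the members did not share a direction on that scale. RPS3 read 43, 76, 40 and 43 with MIR100HG siRNA, against 75, 90, 104 and 67 with control siRNA, and fell by 1.62 ± 0.26 on all 8 arrays (adjusted p 0.0161). RPL41 fell by 1.66 (adjusted p 0.027). RPS3 was detected on 4 of the 8 IgG IPs and RPL41 on 7. Of 7 translation factors 1 was lower on all 8 arrays and 7 without replicate 2, with medians of -0.64 and -0.73, but all 7 had entered both fits through the control siRNA arrays alone. EEF1A1, the elongation factor that delivers aminoacyl-tRNA, fell by 1.27 on all 8 arrays (adjusted p 0.0443) and was at least 1.55-fold lower without replicate 2 (adjusted p 0.000124). EIF4G2 and EIF4B, initiation factors, passed only without replicate 2, where EIF4G2 fell by 1.18 (adjusted p 0.000351) and EIF4B was at least 1.13-fold lower (adjusted p 0.0125).

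Of 34 mRNAs described elsewhere as HuR targets, 6 could be tested, and they did not share a direction. In both fits 3 of the 6 had entered through the control siRNA arrays alone. THBS1, the matrix glycoprotein thrombospondin, read 46, 70, 46 and 44 with MIR100HG siRNA, against 66, 80, 73 and 56 with control siRNA. Only replicate 2 reached the control range, and the gene fell by 1.02 ± 0.28 on all 8 arrays (adjusted p 0.0443). Without replicate 2 THBS1 and CASP2, an initiator caspase, were at least 1.17-fold and 1.28-fold lower (both adjusted p 0.00121). CCNA2, a cyclin of S phase and mitosis, read 65, 64, 64 and 65 with MIR100HG siRNA, against 56, 58, 57 and 59 with control siRNA. Its log2 difference was 0.61 ± 0.37 on all 8 arrays (adjusted p 0.237) and 0.57 ± 0.19 without replicate 2 (adjusted p 0.0244), and it did not pass with median centring (adjusted p 0.264). CCNA2 was detected on 5 of the 8 IgG IPs. ACTB differed by -1.37 ± 0.89 on all 8 arrays (adjusted p 0.255) and passed without replicate 2 with median centring (-3.21, adjusted p 0.00195) but not with quantile normalization (-1.56 ± 0.85, adjusted p 0.12). A dimmer ACTB probe was lower on all 8 arrays (-1.19, adjusted p 0.0219 over all probes). PTMA did not pass in either fit, and JUND is described below.

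Cell cycle genes were few among the tested features. Of 5 cyclins and G1 to S genes, 1 was lower on all 8 arrays (beside 10.5% of all features) and 3 without replicate 2 (beside 55.5%), or 5 with median centring (beside 62.0%), and 3 had entered the fit without replicate 2 through the control siRNA arrays alone. UHRF1, which helps keep DNA methylation through replication, read 54, 175, 50 and 44 with MIR100HG siRNA, against 77, 101, 104 and 69 with control siRNA, and fell by 1.42 ± 0.34 on all 8 arrays (adjusted p 0.027). CCND2, a G1 cyclin, read 89, 1132, 68 and 44 with MIR100HG siRNA, against 215, 307, 308 and 140 with control siRNA. Its brighter probe did not pass on all 8 arrays (-1.42 ± 0.71, adjusted p 0.187) and a second probe did (-1.77, adjusted p 0.0191 over all probes), while both passed without replicate 2. CDK6, a G1 kinase, passed without replicate 2 (adjusted p 0.0125), but its control level was too close to background for a fold. Of 5 G2 and mitosis genes, 1 was lower on all 8 arrays (beside 10.5% of all features). Of 4 tested without replicate 2, 2 were lower (beside 55.5%) and 1, CCNA2, higher (beside 17.5%). Through the control siRNA arrays alone, 2 of the 5 had entered the fit on all 8 arrays and 3 of the 4 the fit without replicate 2. UBE2C, a ubiquitin-conjugating enzyme of mitotic exit, fell by 1.52 ± 0.40 on all 8 arrays (adjusted p 0.0354) and was at least 1.84-fold lower without replicate 2 (adjusted p 0.000124). BUB3, of the spindle checkpoint, fell by 0.40 ± 0.14 without replicate 2 (adjusted p 0.0332). The 1 histone gene tested, H2AZ1, passed only without replicate 2 (adjusted p 0.0398).

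Genes of the p53 pathway, the actin cytoskeleton and adhesion gave 4 to 7 tested members each. Of 4 p53 pathway and apoptosis genes, 2 were lower on all 8 arrays (beside 10.5% of all features) and 3 without replicate 2 (beside 55.5%), and all 4 had entered both fits through the control siRNA arrays alone. ZMAT3, an RNA-binding target of p53, read 52, 184, 51 and 50 with MIR100HG siRNA, against 88, 102, 103 and 75 with control siRNA, and fell by 1.52 ± 0.35 on all 8 arrays (adjusted p 0.0247). BAX, a pore-forming effector of apoptosis, fell by 1.07 ± 0.26 (adjusted p 0.027). Without replicate 2, ZMAT3 was at least 1.76-fold and BAX at least 1.24-fold lower (adjusted p 8.5e-05 and 0.0011). Of 7 actin cytoskeleton genes, 0 were lower on all 8 arrays and 4 without replicate 2, close to the 55.5% of all features, or 7 with median centring, beside 62.0% of all features. In the fit without replicate 2, 6 of the 7 had entered through the control siRNA arrays alone. TMSB4X, which sequesters actin monomers, read 80, 1237, 98 and 55 with MIR100HG siRNA, against 252, 399, 460 and 188 with control siRNA, and fell by 1.53 ± 0.54 without replicate 2 (adjusted p 0.0313). CNN3, a calponin, fell by 1.03 ± 0.17 and ACTG1, the other cytoplasmic actin, was at least 1.48-fold lower (adjusted p 0.00104 and 0.0049). On the common amplitude described further on, without replicate 2, CNN3 differed by 0.51 and TMSB4X by -0.59. Neither passed there (adjusted p 0.15 and 0.196). Of 6 adhesion and matrix genes, 2 were lower on all 8 arrays (beside 10.5% of all features) and 5 without replicate 2 (beside 55.5%), where 5 of the 6 had entered through the control siRNA arrays alone. In that fit CD44 fell by 1.05 ± 0.15 (adjusted p 0.000433).

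The smaller lists gave 1 to 6 tested genes each. Of 6 tubulin and trafficking genes, 1 was lower on all 8 arrays, YWHAZ, and 6 without replicate 2 (beside 10.5% and 55.5% of all features), but all 6 had entered both fits through the control siRNA arrays alone. Among the 6, TUBA1A and SNX3 were at least 1.06-fold and 1.04-fold lower. Of 3 noncoding RNAs, 1 was lower on all 8 arrays, SNHG10, and 3 without replicate 2 (beside the same shares), and 0 were called on all 8 arrays with median centring. In both fits 2 of the 3 had entered through the control siRNA arrays alone. RN7SL1, the RNA of the signal recognition particle, read 80, 1062, 71 and 60 with MIR100HG siRNA, against 212, 231, 199 and 142 with control siRNA, and fell by 1.02 ± 0.37 without replicate 2 (adjusted p 0.0346). SNHG3 fell by 0.67 ± 0.16 (adjusted p 0.0058). Of 4 splicing and RNA-binding proteins, 0 were called on all 8 arrays, and without replicate 2 SRSF6 fell by 1.00 ± 0.23 (adjusted p 0.00561), SRSF9 was at least 1.05-fold lower (adjusted p 0.0107) and HNRNPK was higher as given above. In the fit without replicate 2, 3 of these 4 had entered through the control siRNA arrays alone. Glycolysis gave PGK1 lower, at least 1.04-fold (adjusted p 0.00651), and GAPDH higher without replicate 2, with neither called on all 8 arrays. COX7C, of the respiratory chain, was at least 1.01-fold lower without replicate 2 (adjusted p 0.0134), 1 of 2 oxidative phosphorylation genes. HSP90AA1, the only heat shock or proteasome gene tested, was at least 1.22-fold lower in that fit (adjusted p 0.00422). JUND was the only AP-1 or immediate early gene tested.

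The bright features were also compared after each array's intensity above its median was divided by its amplitude, a scaling chosen after the data were seen. Values under 20 were set to 20, and 120 features were tested on this scale. They came from the bright probes, chosen by the mean of the control siRNA arrays alone. That choice can favour lower calls, and RNAs bright only with MIR100HG siRNA could not be tested. On all 8 arrays 2 were higher (1.67%) and 14 lower (11.7%), and without MIR100HG siRNA replicate 2, 10 were higher (8.33%) and 21 lower (17.5%). The median log2 difference was 0.00 on all 8 arrays and 0.01 without replicate 2. The scaling nearly fixes this median in advance, since the amplitude is the median ratio over these same probes. ACTB, for example, had scaled values of 715, 799, 690 and 238 with MIR100HG siRNA, against 623, 768, 1113 and 658 with control siRNA. Replicate 2 fell among the controls here, as did replicates 1 and 3, and the difference did not pass (adjusted p 0.466).

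JUND was 1 of the 2 features called higher on all 8 arrays on this scale. RTEL1 had a difference of 1.82 there but did not pass (adjusted p 0.299), and without replicate 2 RTEL1 and GAPDH passed with differences of 3.07 and 2.83. JUND encodes a transcription factor of the AP-1 family, and its mRNA has been described as bound by HuR in rat intestinal epithelial cells. As deposited it read 142, 1789, 136 and 65 with MIR100HG siRNA, against 131, 194, 183 and 127 with control siRNA, and it was not detected in any IgG IP (40 to 51). On the common amplitude it had 506, 321, 446 and 311 with MIR100HG siRNA, against 92, 120, 111 and 130 with control siRNA. All 4 MIR100HG siRNA arrays, replicate 2 included, lay above all 4 control arrays, and the log2 difference was 1.79 ± 0.23 (adjusted p 0.00458). Without replicate 2 it was 1.88 ± 0.24 (adjusted p 0.00123). In replicate 4 the reading above the median was 17 units, so its scaled value of 311 rests on a small signal. Under the other scalings JUND was not called: the log2 difference with quantile normalization was 1.02 ± 0.53 on all 8 arrays (adjusted p 0.196) and 0.80 ± 0.51 without replicate 2 (adjusted p 0.171), and with median centring without replicate 2 it was -0.86 (adjusted p 0.0962). The difference was thus one of JUND relative to the other bright features of the same array.

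The other gene higher on all 8 arrays was LILRB3, a receptor known from leukocytes. Its scaled values were 110, 125, 122 and 146 with MIR100HG siRNA, against 65, 82.1, 77.7 and 78.6 with control siRNA, without overlap, a log2 difference of 0.73 ± 0.18 (adjusted p 0.0335). In MIR100HG siRNA replicates 1, 3 and 4 its readings above the median were only 20, 24 and 8 units. The IgG IPs lay 9, -1, -1 and 0 units above theirs with MIR100HG siRNA, and 7, 4, 16 and 8 with control siRNA. Scaled values in the IgG IPs reached 160, so outside replicate 2 the LILRB3 difference rests on small signals. Of the 10 features higher without replicate 2, 7 were near-constant probes such as RTEL1 and GAPDH, whose scaled values grow when a small amplitude divides them. On the lower side, 7 of the 14 features on all 8 arrays were named: RPS20, YWHAZ, KCNH6, SNHG10, SNRPF, XPNPEP3 and TMED2. XPNPEP3 had 55, 52.9, 30.4 and 20 with MIR100HG siRNA, against 122, 122, 92.3 and 78.6 with control siRNA, a log2 difference of -1.48 ± 0.36 (adjusted p 0.03). Replicate 2, the array with the strongest signal, was low here too after division by its amplitude of 5.42. As deposited, its XPNPEP3 reading lay above every control array. YWHAZ had 20, 29, 20 and 20 with MIR100HG siRNA, against 59.5, 48.8, 91.5 and 46.5 with control siRNA (-1.43 ± 0.27, adjusted p 0.0152). Of the 14 lower features, 13 had at least 1 MIR100HG siRNA value at the floor of 20, which makes the size of those differences depend on the floor.

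**Figure D5:**
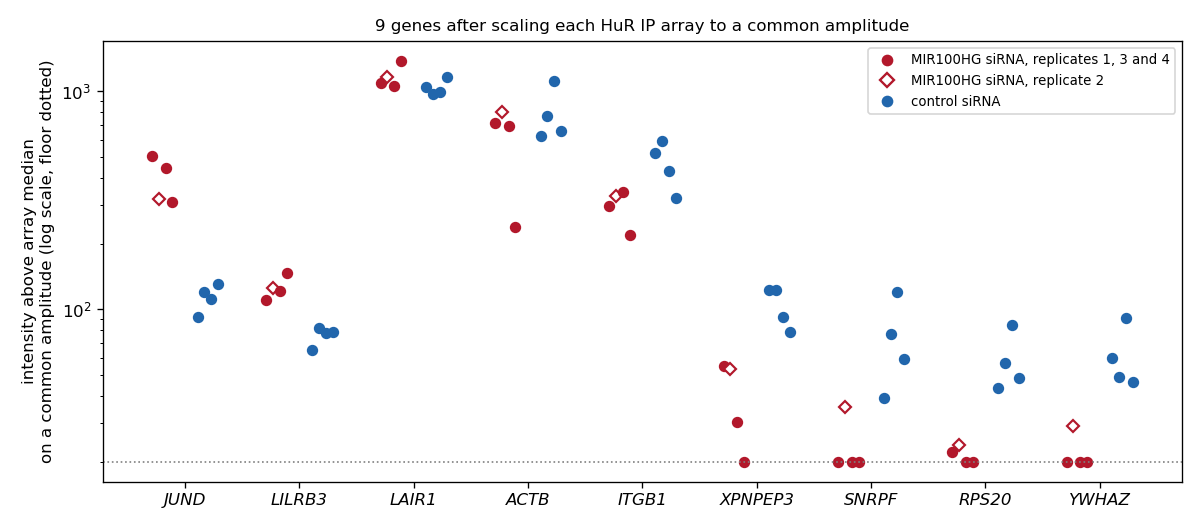
Intensity above the array median divided by the amplitude of the array (log scale) for 9 genes, MIR100HG siRNA left and control siRNA right within each gene, with the floor of 20 dotted. JUND lies at 311 to 506 with MIR100HG siRNA and at 92 to 130 with control siRNA, LAIR1 and ACTB overlap, and XPNPEP3, SNRPF, RPS20 and YWHAZ lie lower with MIR100HG siRNA, several of their values at the floor.

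Detection alone, without any scaling, gave few probes that separated the groups completely. Counted were probes with a detection p under 0.01 on every array of a group and of 0.05 or more on every array of the other. On all 8 arrays 0 of 47231 probes were detected only with MIR100HG siRNA (0.0%) and 4 only with control siRNA (0.00847%). With detection at a p under 0.05 on both sides the balance turned round, with 40 only with MIR100HG siRNA and 11 only with control siRNA. The named ones of the 4 were the dimmer ACTB probe, H6PD and RPL13AP5. H6PD, which makes NADPH in the endoplasmic reticulum, read 48, 56, 48 and 43 with MIR100HG siRNA, against 68, 75, 73 and 63 with control siRNA, and fell by 1.27 on the log2 scale (adjusted p 0.0166). RPL13AP5, a pseudogene of a ribosomal protein that may share signal with its parent gene and other copies, read 50, 55, 43 and 43 with MIR100HG siRNA, against 59, 84, 109 and 60 with control siRNA. It fell by 1.37 on the log2 scale (adjusted p 0.024), and a second probe of it did not pass (-1.19, adjusted p 0.0574 over all probes). H6PD and RPL13AP5 were low in replicate 2 as well, the brightest array of the group. That is set by the count itself, which required a detection p of 0.05 or more on every MIR100HG siRNA array. H6PD was detected on 1 and RPL13AP5 on 2 of the 8 IgG IPs.

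Without replicate 2, 139 probes were detected only with control siRNA (0.294%) and 0 only with MIR100HG siRNA (0.0%). Leaving out control siRNA replicate 4, which had the fewest detected probes of its group, gave 268 in place of 139, and 7 in place of 4 on all 8 arrays. Of the 139, 86 belonged to named genes and 73 were detected on no IgG array. SNRPF, YWHAZ and SNHG10 were among those 73, and so was a second probe of AXL, a receptor tyrosine kinase. AXL's brighter probe read 76, 577, 71 and 53 with MIR100HG siRNA, against 139, 163, 197 and 112 with control siRNA, and did not pass in either fit with quantile normalization (adjusted p 0.255 and 0.104), whereas the second probe did in both (-1.86 and -1.72, adjusted p 0.0322 and 4.6e-05 over all probes).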

How the data were processed

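RNA from HuR and IgG IPs of U2OS cells was measured on Illumina bead arrays after amplification and labelling. GenomeStudio 2011.1 was used, per the submitters' processing notes. The deposited file gives an intensity and a detection p-value for each probe and array, not normalized. A deposited value table of the same arrays holds a score whose transformation is not stated; it correlated at 0.998 or above with the log2 of the intensity on each HuR IP array and was used as an alternative, and its 8 IgG columns were not used. Depth does not apply to arrays; their number limits the precision.

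Intensities were background-corrected and quantile normalized (limma 3.58.1 neqc in R 4.3.3, offset 16, background inferred from the detection p-values), filtered at detection p under 0.01 on at least 3 arrays of either group, and reduced to the probe with the highest mean per gene. A gene's other probes are mentioned where they disagree. Of 47231 probes, 30113 had 1 gene, 8 had several and 17110 are unnamed here. Groups were compared with limma (lmFit and eBayes, Benjamini-Hochberg), array measures with exact two-sided permutation tests. The fit was tested on simulated data. Bounds for undetected groups used, per array, the higher of the lowest signal among detected probes and the probe's own. Where nothing shows separate cultures, p-values measure the spread between these samples.

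The comparison, the gene lists and the tests were chosen with earlier results of these data known. Named genes are, per fit and direction, the up to 10 with the largest differences past the threshold without overlap (or the 5 smallest p where under 5 passed), up to 3 per list, 5 that separate by detection, the 5 brightest per group, and MIR100HG and ELAVL1; LILRB3, WWOX, CLEC10A, PTMA and markers were named after their values were seen.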

Additional observations from a re-analysis of the deposited data

Results flagged for a closer look

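An array was picked out when its gap to the nearest array of its group of 4, divided by the range of the group, exceeded Dixon's critical value. Chance picks out about 1 in 20 groups. Among the array measures, MIR100HG siRNA replicate 2 stood apart in detected probes (0.8714), highest intensity (0.9967) and amplitude of the bright probes (0.9734). In the control siRNA group, replicate 2 stood apart in median intensity (1.0), by a single intensity unit.

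Of 132 groups of normalized log2 values of the genes named in the text, 41 had an array that stood apart. In the MIR100HG siRNA group the array was replicate 2, on the high side, for 26 genes and replicate 4, on the low side, for 3. The ratio passed for YWHAZ (0.9534), NUCKS1 (0.8324), MT2A (0.8867), RPS20 (0.912), SNHG10 (0.8371), KCNH6 (0.905), DCBLD2 (0.8497) and SNRPF (0.9324). It passed as well for ITGB1 (0.8673), RPS3 (0.9463), THBS1 (0.9495), CASP2 (0.9395), ACTG1 (0.9609), CD44 (0.8446), UHRF1 (0.8786) and CDK6 (0.9411). Further such genes were UBE2C (0.9074), H2AZ1 (0.9543), ZMAT3 (0.9973), EEF1A1 (0.9242), EIF4B (0.8855), SRSF9 (0.9059), PGK1 (0.9712) and COX7C (0.9189). The last of them were TUBA1A (0.8675), SNX3 (0.9268), ACTB (0.9737), AXL (0.8823) and LAIR1 (1.0). In the control siRNA group 12 genes had an array that stood apart: replicate 4 in 7 of them, replicate 3 in 4 and replicate 1 in 1. They were CCDC43 (0.8593), TMED2 (0.9028), HNRNPK (0.8553), CYB561 (0.9159), RPL41 (0.8902) and RPS3 (0.8726), and CCNA2 (0.9211), CD44 (0.843), H2AZ1 (0.892), HSP90AA1 (0.9578), LAIR1 (1.0) and F2R (1.0). A ratio of 1.0 arises where quantile normalization gave 3 arrays the same value at the top of the distribution, as for LAIR1 and F2R.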

How the results depend on the processing

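On all 8 arrays, the 91 calls became 0 with median centring, 0 with no scaling, 0 with the filter in both groups, 45 with a filter at detection p under 0.05, 12 with no filter and 21 with the deposited score. They became 619 with array weights (194 higher and 425 lower), 151 in a fit over all 16 arrays and 16 on a common amplitude, chosen after seeing the data. No background correction, offset 50, every probe, an intensity trend and group weights each kept the count within 1.5 times, between 66 and 131. Leaving out 1 array gave 2 to 547 calls. Without MIR100HG siRNA replicate 2, the 547 calls became 67 with the filter in both groups, 351 with no filter and 31 on a common amplitude, and 356 to 639 when another array was left out as well. With no scaling and MIR100HG siRNA replicate 4 left out too, they became 363. No label pairs samples by replicate number. The correlations of same-numbered deviations were -0.03, 0.30, -0.16 and 0.23, too few and too mixed to settle a pairing. The replicate block gave 132 calls (16 higher and 116 lower) on all 8 arrays and 446 without replicate 2.

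Detected probes differed by 45.75 on all 8 arrays, and this ranged from -423 without MIR100HG siRNA replicate 2 to 253 without replicate 1, and was -83.3 without control siRNA replicate 4. The difference in highest intensity ranged from -786 without MIR100HG siRNA replicate 2 to 1233 without replicate 3. Probes detected in a single group numbered 51 at a p under 0.05 on both sides (40 with MIR100HG siRNA and 11 with control siRNA), and 4 to 139 when 1 array was left out. Without replicate 2 they numbered 356 at that threshold (82 and 274), and 139 to 268 when another array was left out.

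Among the named genes, signs of called ones turned round only in the fit without replicate 2. GAPDH became -0.14 with median centring and -0.12 with no scaling, and with MIR100HG siRNA replicate 1, 3 or 4 also left out it was -0.24, -0.085 and -0.11 with median centring and -0.22, -0.060 and -0.082 with no scaling. RTEL1 became -0.13 with median centring and -0.11 with no scaling when replicate 1 was also left out. On a common amplitude CNN3 became 0.51, SRSF6 0.34 and RN7SL1 0.10. RPL6 and RPS29, named outside the stated rule, turned round there too, to 0.41 and 0.63. Signs of genes called in neither setting, JUND among them, changed 14 times on all 8 arrays and 14 times without replicate 2. The other genes chosen by the stated rule kept their direction. Among the comparisons of the genes so chosen, 262 on all 8 arrays and 217 without replicate 2 lost the call, and 95 and 67 gained it. The causes were not tested. Signal over background limits all of this, since the filter kept 1.91% of probes.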

Other observations

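Background in the IgG IPs reached into the tested features of both groups. Of the 866 features tested on all 8 arrays, 41.7%, 8.66%, 45.4% and 64.4% lay at or below their own highest reading in the IgG IPs with control siRNA on MIR100HG siRNA replicates 1 to 4, against 49.5%, 36.6%, 42.4% and 56.7% on control siRNA replicates 1 to 4. MIR100HG siRNA replicate 4 had the highest share and replicate 2 the lowest.

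Of the 402 features lower without MIR100HG siRNA replicate 2 in all 3 scalings, 139 had no gene name here, as had 5 of the 9 that were higher.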
